A study of Homo sapiens with 12 samples.

Results

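The genes described here were compared between honokiol and DMSO over THP-1 and U-937 cells together, for the average change in both lines. Honokiol is a biphenolic compound of magnolia bark, and THP-1 and U-937 are established human acute myeloid leukemia (AML) lines of monocytic origin with complex karyotypes. Poly(A) mRNA was sequenced in 12 libraries, 3 for each line with honokiol and 3 for each line with its solvent (0.1% DMSO), all after 24 h. The labels list 20 and 35 µM honokiol without saying which line received which dose. Nothing in the labels says that the 3 libraries of a group came from separate cultures, so p-values measure the spread between these libraries. Genes were kept where FPKM, the authors' read level scaled to transcript length and library size, was 0.5 or more in 3 or more of the 6 libraries in THP-1 and again in U-937, which held for 12343 of the 36866 genes in the table. Honokiol was then compared with DMSO over all 12 libraries, 6 a side, in 1 fit with the line as a second term, so that each fold change is an average over both lines.

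Several stress and lipid programs of the cell bear on the genes below. ATF4 is the transcription factor that cells translate when amino acids run short or the endoplasmic reticulum is under strain, and it switches on genes for amino acid import and synthesis. PPARs and LXRs are nuclear receptors that sense fatty acids and oxysterols, and in monocytes and macrophages their target genes store, burn and export lipid. NRF2 answers electrophiles and oxidants. Ferroptosis is a form of cell death driven by iron and peroxidized lipids, held back by the cystine importer SLC7A11 and the lipid peroxidase GPX4.

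Estimated counts summed to between 57406966 and 75065752 per library. Replicate 1 of DMSO stood apart in each line by its share of mitochondrially encoded genes, 13.7% (THP-1) and 12.6% (U-937), where the remaining 10 libraries ranged from 5.61% to 7.55%. Of 9 myeloid identity genes all were detected, with a summed FPKM from 580.4 to 1027 over the 12 libraries; MPO was high in THP-1 only, with a mean FPKM of 30.1 with DMSO against 0.083 in U-937. CD3D and CD3E, chains of the T cell receptor complex, were at or near 0 in every group. NKG7, a cytotoxic granule gene, reached a mean FPKM of 148 in DMSO-treated U-937 cells. Of 7 listed T and NK cell genes 4 reached the FPKM level required above in at least 1 library. With DMSO that list summed to 11.4 to 22.6 in THP-1 and 136 to 165.6 in U-937. All 4 listed B cell genes reached the level too, with DMSO sums of 17.1 to 29.4 in THP-1 and 4.48 to 5.71 in U-937. In the erythroid and platelet list and in the epithelial and fibroblast list 1 gene each did. In bulk RNA, fewer cells of a kind and less RNA per cell cannot be told apart.

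Honokiol changed 74 genes by the study's criterion, an adjusted p under 0.05 and a log2 fold change over 1 in size. Of these 53 were higher (0.429% of the genes tested) and 21 lower (0.17%). At an adjusted p under 0.05 with no limit on size, 405 genes changed, 227 higher (1.84%) and 178 lower (1.44%), with p-values from the quasi-likelihood test of edgeR, adjusted by Benjamini-Hochberg over all 12343 genes. None of the 405 had opposite signs in the lines. Genes chosen by their average over both lines seldom have opposite signs, so this does not test whether the lines agree. Of the 74, 44 exceeded a log2 fold change of 1 in each line. The log2 fold changes of the 74 ran from -1.77 for F3, the tissue factor gene that starts coagulation, to 4.45 for FABP4, a fatty acid carrier. Just inside the limit of 1 lay S100P and NBR2 (both 1.01), and just outside CASP2 (-0.996) and APOE (0.99). For 286 of the 405 genes neither line's own contrast passed the adjusted threshold. The count depended on single libraries. It was 105 without THP-1 honokiol replicate 3 and 543 without THP-1 honokiol replicate 1, 508 without THP-1 DMSO replicate 3 and 296 without U-937 DMSO replicate 3. Without any 1 of the other 8 libraries it lay between 127 (U-937 honokiol replicate 3) and 249 (THP-1 DMSO replicate 1), and without DMSO replicate 1 of both lines it was 168.

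Another description asks that the 3 honokiol libraries do not overlap with the 3 DMSO libraries, in the same direction in both lines. In FPKM this held for 482 genes higher (3.91% of those tested) and 155 lower (1.26%), a split of 75.7% higher. Scaling moved that split and in 1 case turned it. On CPM (counts scaled to library size) after TMM normalization, 324 were higher and 269 lower (54.6% higher). The planned rescaling divided FPKM by the share of a library's FPKM total that lay outside the mitochondrially encoded genes. Differences in FPKM total between libraries were left in. On that scale 188 were higher and 351 lower (34.9% higher), so that lower genes were the more numerous. Another pair of rescalings was chosen after that result was seen. Rescaling by the share of estimated counts outside the mitochondrially encoded genes gave 425 higher and 198 lower (68.2% higher), and dividing by the FPKM sum of the other genes gave 361 and 211 (63.1% higher). Of 78 named genes without overlap on FPKM, 55 were without overlap in the same direction under all 5 scalings. The planned rescaling ended it for ITGAL, ID1, ASAH1, LIPA, BCL2L11, HERPUD1, SLC3A2, TRIB3, CPT1A, AARS1, SARS1 and WARS1, among others, and the words without overlap refer to FPKM as deposited from here on. Many named genes were picked by rules that require no overlap, so for them it was fixed in advance. Of the 405 genes past the adjusted threshold with counts, 56% were higher. Limma on log2(FPKM + 0.5) called a set of its own, 318 higher and 84 lower (79.1% higher), and 305 of the 405 passed in it. In that fit the median log2 fold change over all tested genes lay 0.07 above 0. Among the 74 genes 51 were without overlap in both lines, 43 higher and 8 lower. Some genes were tested in a line only through their level under 1 treatment. Of the 53 higher genes 8 were at 0.5 or above in all 3 honokiol and in no DMSO library of a line (GDF15, CD38, RETREG1 and IL21R among them), and such genes had to differ. With no limit on size there were 12 such genes among the 227, APOE among them.

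**Figure D1:**
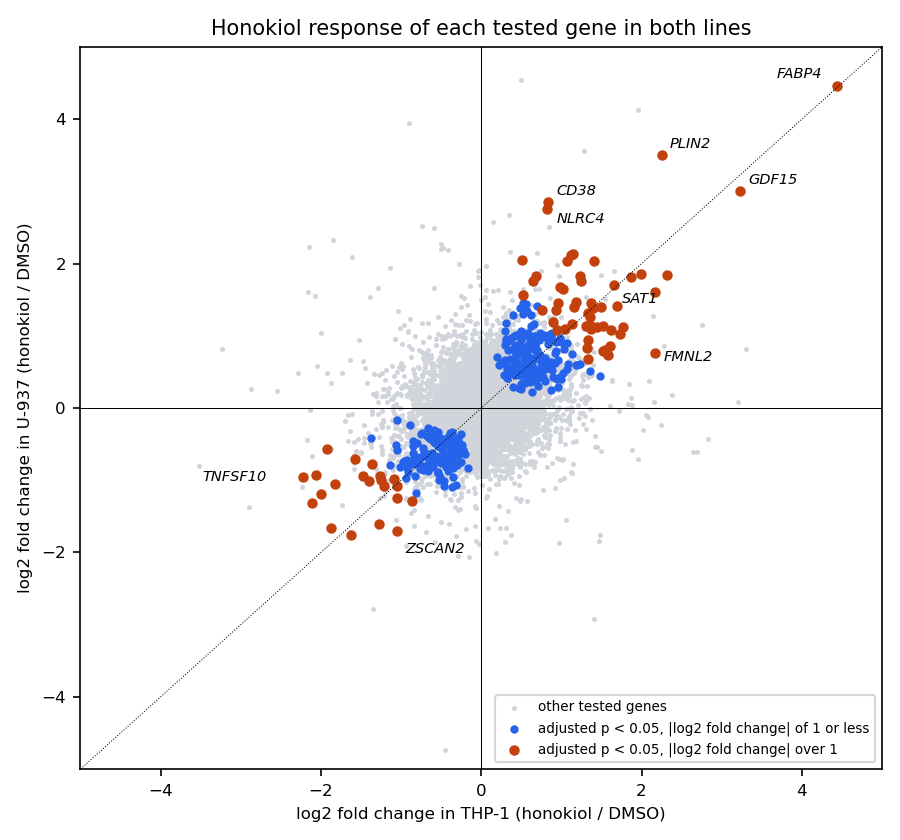
Log2 fold change (honokiol / DMSO) in THP-1 (x axis) against U-937 (y axis) for the tested genes, with the 74 genes of the study's criterion in orange, the other genes at an adjusted p under 0.05 in blue and the rest in grey. The 405 colored genes were chosen by their average change, which favors equal signs, and lie in the upper right or lower left quadrant. The dotted line marks equal change, CD38 and NLRC4 sit far above it and FMNL2 below it, and 3 grey genes fall outside the axes.

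Of 32 listed genes of the ATF4 response 27 were tested and 11 rose (40.7%, against 1.84% of all tested genes), with no member falling; the median log2 fold change over the 27 was 0.60 against -0.0046 over all tested genes, and 24 of the 27 were positive. The 11 were GDF15, DDIT4, SLC7A11, DDIT3, CEBPB, PSAT1, ASNS, SESN2, PCK2, TRIB3 and SHMT2, from 3.12 for GDF15 down to 0.60 for SHMT2. GDF15 met the FPKM limit in U-937 through the honokiol libraries alone and so had to differ there, which leaves 10. In THP-1 GDF15 met it mainly through the honokiol libraries. Without DMSO replicate 1 of both lines 5 members passed, and with any single library left out between 6 (without THP-1 honokiol replicate 3) and 13 members passed. ATF4 itself did not pass (0.40 ± 0.13 (SE), adjusted p = 0.111).

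GDF15 (chr19:18374731-18389176, GRCh38), a secreted stress cytokine, was low in DMSO and higher in every honokiol library. Its FPKM was 0.42, 0.53 and 0.39 with DMSO and 2.52, 3.27 and 7.39 with honokiol in THP-1, and 0.16, 0.19 and 0.09 against 0.63, 1.66 and 1.69 in U-937. Each honokiol library exceeded each DMSO library of its line, and the change was 8.71-fold (3.12 ± 0.34 (SE), adjusted p = 0.00142 on the log2 scale). DDIT3 encodes CHOP, the transcription factor that couples lasting stress to cell death. Its FPKM was 9.88, 16.1 and 13.3 with DMSO and 24.4, 26.2 and 53.8 with honokiol in THP-1, and 4.76, 5.49 and 4.66 against 10.7, 18.4 and 14.97 in U-937. THP-1 honokiol replicate 3 had the highest DDIT3 of all libraries, and the groups did not overlap in either line (1.41 ± 0.20 (SE), adjusted p = 0.00504). The exons of DDIT3 are shared in part with a clone-named gene on the same strand, so its count is uncertain to that extent. ASNS, which makes asparagine, stood at 1.59, 1.60 and 1.36 with DMSO and 2.99, 3.42 and 5.79 with honokiol in THP-1, and 2.22, 1.88 and 2.06 against 6.44, 4.01 and 4.15 in U-937, again with no overlap (1.25 ± 0.18 (SE), adjusted p = 0.00572). PSAT1, of serine synthesis, and TRIB3, a pseudokinase that feeds back on ATF4, rose by 1.28 ± 0.25 and 0.81 ± 0.18 (log2, SE). DDIT4, an inhibitor of mTORC1, rose by 1.62 ± 0.39, but in THP-1 its honokiol range of 52.4 to 151 overlapped with the DMSO range of 11.4 to 72.2. The tRNA synthetase genes AARS1 (0.84 ± 0.16 (SE), adjusted p = 0.0171), WARS1 (0.90 ± 0.16 (SE), adjusted p = 0.0136) and SARS1 (0.48 ± 0.092 (SE), adjusted p = 0.0191) were without overlap in both lines as well; they are outside the fixed lists and were chosen after their values were seen.

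**Figure D2:**
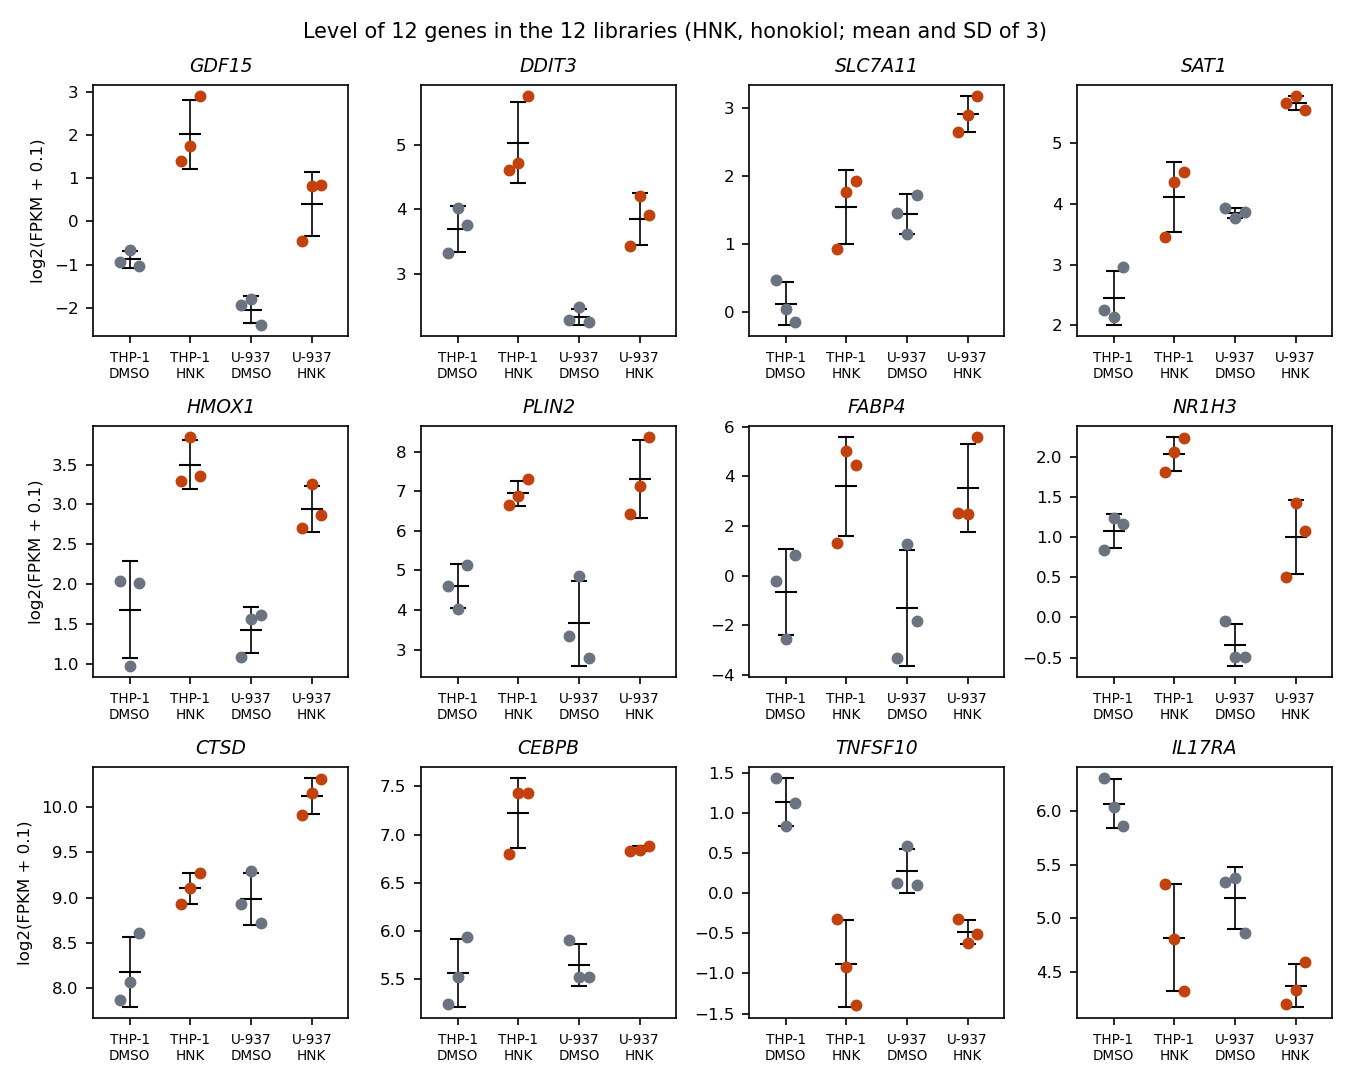
Level of 12 genes as log2(FPKM + 0.1) on the y axis in the 12 libraries, grouped on the x axis by line and treatment (grey, DMSO; orange, honokiol), with the mean and SD of the 3 libraries. In every panel the honokiol and DMSO libraries of a line do not overlap, TNFSF10 and IL17RA being the genes that are lower. Apart from SAT1, HMOX1, SLC7A11 and CEBPB, which the study names, the genes were picked by rules that require this.

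Of the 30 listed PPAR targets and lipid droplet genes, which take up, store and burn fatty acids, 23 were tested, 10 rose (43.5%, against 1.84% of all tested genes) and none fell, and 12 were higher without overlap in both lines (against 3.91% of all tested genes). The median log2 fold change was 0.61, close to that in each line (0.59 in THP-1 and 0.62 in U-937). PLIN2 (chr9:19108375-19149290) coats lipid droplets. Its FPKM was 24.4, 16.3 and 35.4 with DMSO and 101, 117 and 157 with honokiol in THP-1, and 10.04, 29.1 and 6.83 against 86.1, 139 and 330.3 in U-937. The honokiol libraries of U-937 spread from 86.1 to 330.3, yet the lowest lay above the highest DMSO library, and PLIN2 rose 7.35-fold (2.88 ± 0.44 (SE), adjusted p = 0.00686). FABP4, the fatty acid carrier of adipocytes and macrophages, had the largest fold change of all 405 genes and also the widest spread. Its FPKM was 0.75, 0.07 and 1.67 with DMSO and 2.39, 32.1 and 21.99 with honokiol in THP-1, and 0, 2.30 and 0.18 against 5.69, 5.44 and 47.9 in U-937. The fold change rested on few reads in DMSO, where the estimated count ranged from 0 to 263 per library, and the FPKM limit was met in U-937 mainly through the honokiol libraries. It was 4.45 ± 1.01 with an adjusted p of 0.0361, and passed in 5 of the 12 fits that left out a library.

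Enzymes of the same list had smaller fold changes. MGLL, which cleaves monoglycerides, stood at 2.06, 1.68 and 1.85 with DMSO and 5.11, 7.50 and 6.60 with honokiol in THP-1, and 10.04, 9.95 and 9.0 against 14.6, 23.2 and 25.6 in U-937 (1.37 ± 0.17 (SE), adjusted p = 0.00313). ACAA2, the thiolase of the last step of mitochondrial β-oxidation, stood at 4.66, 5.59 and 7.06 with DMSO and 8.0, 11.3 and 12.02 with honokiol in THP-1, and 6.34, 8.64 and 9.74 against 18.4, 17.2 and 16.4 in U-937 (0.90 ± 0.13 (SE), adjusted p = 0.00504), and ACSL1, which activates long-chain fatty acids, at 14.6, 13.5 and 17.2 with DMSO and 21.4, 25.4 and 25.2 with honokiol in THP-1, and 22.9, 28.7 and 17.1 against 42.4, 43.6 and 54.5 in U-937 (0.77 ± 0.14 (SE), adjusted p = 0.0139). None of these genes overlapped between treatments in either line. Exons of ACAA2 are shared in part with a clone-named gene, as are those of ASNS, APOE and GPI. Among genes of the carnitine-dependent import of fatty acids, the transcripts of CPT1A and of the carnitine carrier SLC25A20 rose, CPT1A by 0.56 ± 0.13 and SLC25A20 by 1.31 ± 0.24; CPT1A passed in only 2 of the 12 fits with a library left out, SLC25A20 in all 12. ACADVL, ETFDH and PLIN4 complete the 10. PLIN4 met the FPKM limit in THP-1 mainly through the honokiol libraries, with DMSO at 0.41, 0.53 and 0.41. PNPLA2, which starts triglyceride breakdown, did not pass (0.05 ± 0.11 (SE), adjusted p = 0.824). The count of 10 became 4 without DMSO replicate 1 of both lines, and 6 without THP-1 honokiol replicate 2. PPARG, a receptor of this class and a gene outside the list, rose by 0.69 ± 0.15 (adjusted p = 0.0331), from 6.67, 7.18 and 7.94 to 10.4, 14.2 and 11.3 in THP-1 and from 2.64, 2.51 and 2.07 to 2.87, 4.13 and 5.63 in U-937. It passed in 4 of the 12 fits with a library left out, and its groups overlapped in at least 1 line under 3 of the 5 scalings.

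Among 9 tested LXR targets NR1H3, PLTP and APOE rose (33.3%, against 1.84% of all tested genes), none fell, and all 9 were positive (median 0.69). APOE met the FPKM limit in U-937 through the honokiol libraries alone and so had to differ there, which leaves NR1H3 and PLTP. NR1H3 encodes LXRα itself. Its FPKM was 1.69, 2.25 and 2.13 with DMSO and 3.40, 4.07 and 4.59 with honokiol in THP-1, and 0.87, 0.61 and 0.61 against 1.32, 2.59 and 2.0 in U-937, without overlap (1.15 ± 0.18 (SE), adjusted p = 0.00854). PLTP, a phospholipid transfer protein, stood at 53.2, 58.9 and 78.4 with DMSO and 82.3, 99.3 and 109 with honokiol in THP-1, and 12.8, 10.5 and 10.6 against 30.5, 31.2 and 30.9 in U-937 (0.95 ± 0.15 (SE), adjusted p = 0.00854). APOE, the lipid carrier, was abundant in THP-1 and scarce in U-937, at 24.4, 44.4 and 52.7 with DMSO and 57.4, 69.1 and 74.8 with honokiol in THP-1, and 0.27, 0.31 and 0.18 against 0.72, 0.74 and 0.69 in U-937 (0.99 ± 0.20 (SE), adjusted p = 0.0200). ABCA1 and ABCG1, the cholesterol exporters of the list, were not tested, being under the FPKM limit in at least 1 line. Of 28 tested sterol and fatty acid synthesis genes under SREBP control STARD4, a cholesterol carrier, rose (0.76 ± 0.16 (SE), adjusted p = 0.0263), no other member passed, and the list's median was -0.03. STARD4 passed in 6 of the 12 fits with a library left out.

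Of 31 tested lysosomal genes CTSD, ASAH1, PSAP, ATP6V1A and LIPA rose (16.1%, against 1.84% of all tested genes) and none fell, and 28 were positive with a median of 0.18. CTSD, the aspartic protease of lysosomes, was the most abundant of them, with an FPKM of 233, 267 and 391 with DMSO and 487, 552 and 616 with honokiol in THP-1, and 488, 628 and 423 against 963, 1137 and 1265 in U-937 (0.94 ± 0.14 (SE), adjusted p = 0.00686). A pair of clone-named genes within the CTSD locus rose more, and exons of CTSD are shared with other genes on both strands, so reads may be split between them. PSAP, the precursor of the saposins, stood at 194, 303 and 347 with DMSO and 383, 442 and 459 with honokiol in THP-1, and 70.3, 109 and 74.5 against 113, 159 and 186 in U-937 (0.66 ± 0.16 (SE), adjusted p = 0.0416), and on CPM after TMM its groups overlapped in at least 1 line. LIPA, which frees cholesterol and fatty acids from lipoproteins, rose by 0.37 ± 0.091, ASAH1, the acid ceramidase, by 0.78 ± 0.16, and ATP6V1A, a subunit of the proton pump, by 0.51 ± 0.12. The count of 5 became 2 without DMSO replicate 1 of both lines and 1 without THP-1 DMSO replicate 2.

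**Figure D3:**
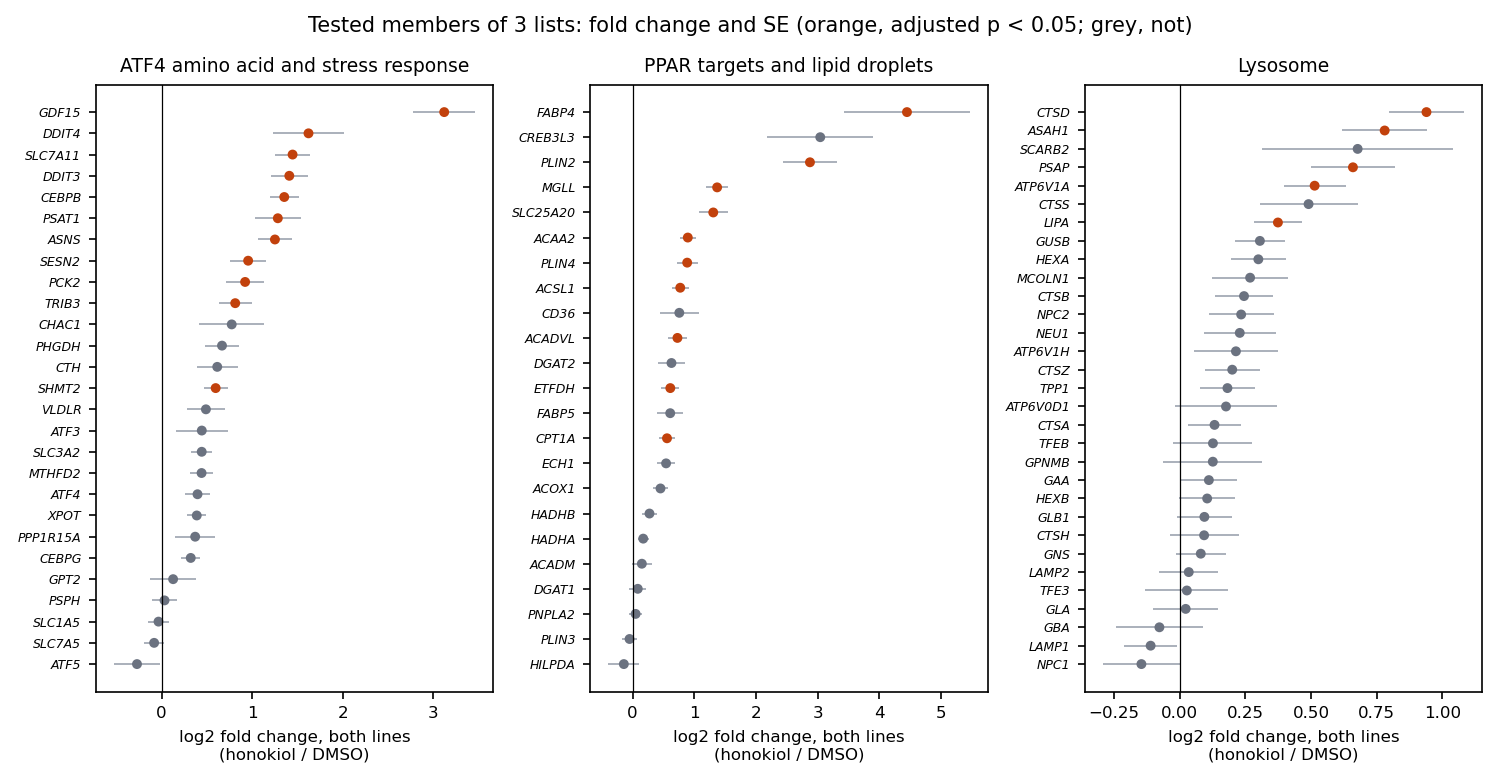
Log2 fold change over both lines (x axis, honokiol / DMSO, bars are the SE) of each tested member of the ATF4, PPAR and lipid droplet, and lysosome lists (y axis, 1 gene a line), orange where the adjusted p is under 0.05. GDF15 (3.12) and FABP4 (4.45) lead their lists, while the lysosome genes lie between -0.15 and 0.94.

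In the ferroptosis and iron list, of 33 tested genes SAT1, HMOX1 and SLC7A11 rose (9.09%, against 1.84% of all tested genes). None fell, and the median was 0.05 with 18 positive. SAT1 acetylates polyamines. Its FPKM was 4.69, 4.31 and 7.72 with DMSO and 10.9, 20.5 and 22.9 with honokiol in THP-1, and 15.2, 13.5 and 14.6 against 50.98, 54.8 and 46.6 in U-937, with the honokiol libraries of U-937 more than 3 times as high as any DMSO library (3.21-fold over both lines, 1.68 ± 0.18 (SE), adjusted p = 0.00142). HMOX1, heme oxygenase 1, releases iron from heme, and stood at 4.03, 1.87 and 3.96 with DMSO and 9.70, 14.3 and 10.2 with honokiol in THP-1, and 2.03, 2.87 and 2.96 against 6.44, 9.46 and 7.17 in U-937 (2.94-fold, 1.55 ± 0.21 (SE), adjusted p = 0.00367). The light chain of the cystine importer, SLC7A11, had an FPKM of 1.28, 0.93 and 0.80 with DMSO and 1.79, 3.31 and 3.71 with honokiol in THP-1, and 2.63, 2.11 and 3.20 against 6.20, 7.34 and 8.97 in U-937 (2.73-fold, 1.45 ± 0.19 (SE), adjusted p = 0.00361). In the table's coordinates, which are those of GRCh38, SAT1 lies at chrX:23783173-23786226, HMOX1 at chr22:35380361-35390293 and SLC7A11 at chr4:138164097-138242349. These genes passed in all 12 fits with a library left out and without DMSO replicate 1 of both lines. SLC3A2, the partner chain of SLC7A11, was higher without overlap in both lines but did not pass (0.44 ± 0.12 (SE), adjusted p = 0.0577). GPX4 stood at 63.5, 68.5 and 77.6 with DMSO and 71.7, 70.03 and 79.7 with honokiol in THP-1, and 68.02, 58.6 and 57.1 against 59.5, 62.8 and 65.3 in U-937, with the treatments overlapping in both lines (-0.02 ± 0.090 (SE), adjusted p = 0.919). TFRC, the transferrin receptor, did not pass either (-0.69 ± 0.25 (SE), adjusted p = 0.135). In THP-1 it was lower without overlap, with honokiol at 23.9, 30.5 and 20.7 against 58.3, 53.1 and 65.9, while in U-937 the ranges of 51.2 to 66.6 and 30.9 to 81.2 overlapped.

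Of the 24 tested NRF2 targets HMOX1, SLC7A11 and BLVRB rose (12.5%, against 1.84% of all tested genes), with a median of 0.20. BLVRB, a biliverdin reductase that acts after heme oxygenase, rose by 0.89 ± 0.17 (adjusted p = 0.0186). NQO1, a quinone reductase often used as a marker of NRF2 activity, did not pass (0.05 ± 0.15 (SE), adjusted p = 0.890), with mean FPKM of 20.1 and 20.2 in THP-1 and 22.3 and 26.2 in U-937. SLC7A11 is thus counted in the NRF2, ATF4 and ferroptosis lists, and HMOX1 in the NRF2 and ferroptosis lists. BACH1, a repressor of HMOX1 outside the lists, rose too (0.60 ± 0.11 (SE), adjusted p = 0.0162).

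In the monocyte and macrophage maturation list CEBPB and ITGAL rose of 22 tested (9.09%, against 1.84% of all tested genes) and none fell. Over the 22 the median was 0.21 with 16 positive, and the lowest member stood at -1.17 without passing. FGR and CD38, given below, are outside the list. CEBPB, a transcription factor of monocyte maturation that is also counted in the ATF4 list, had an FPKM of 37.5, 45.6 and 61.2 with DMSO and 111, 173 and 173 with honokiol in THP-1, and 59.6, 45.7 and 45.8 against 114, 114 and 118 in U-937 (2.56-fold, 1.35 ± 0.16 (SE), adjusted p = 0.00261). FGR, a SRC family kinase of myeloid cells, stood at 10.1, 7.84 and 11.03 with DMSO and 21.8, 45.4 and 52.7 with honokiol in THP-1, and 25.7, 25.8 and 12.1 against 66.96, 88.5 and 93.5 in U-937 (3.80-fold, 1.93 ± 0.24 (SE), adjusted p = 0.00302). CD38, an ectoenzyme that consumes NAD, stood at 9.98, 6.05 and 8.30 with DMSO and 14.4, 15.9 and 14.7 with honokiol in THP-1, and 0.37, 0.34 and 0.19 against 3.19, 2.51 and 1.34 in U-937 (3.48-fold, 1.80 ± 0.37 (SE), adjusted p = 0.0244). It met the FPKM limit in U-937 through the honokiol libraries alone and so had to differ there. ITGAL, the CD11a integrin chain, was higher in both lines as well (0.92 ± 0.15 (SE), adjusted p = 0.00997), and so were ITGB7 (1.49 ± 0.26 (SE), adjusted p = 0.0139) and ITGA6 (1.16 ± 0.20 (SE), adjusted p = 0.0136), 2 more integrin chains chosen after their values were seen. ITGB7 met the FPKM limit in U-937 mainly through the honokiol libraries, with DMSO at 0.24, 0.53 and 0.32. ITGAX, the CD11c chain, was without overlap but did not pass (adjusted p = 0.0672). ID1, VWA5A and FMNL2 were also among the 10 genes with the largest increases that the naming rule picks. ID1, an inhibitor of basic helix-loop-helix factors, rose by 1.45 ± 0.29, VWA5A by 1.72 ± 0.36 and FMNL2, a formin that assembles actin, by 1.45 ± 0.24. FMNL2 met the FPKM limit in THP-1 mainly through the honokiol libraries. MYB and CTSG, genes of immature myeloid cells outside the lists that were chosen after their values were seen, fell by 0.76 ± 0.16 and 0.77 ± 0.15 on the log2 scale. MYB stood at 67.02, 51.5 and 39.03 with DMSO and 38.8, 27.9 and 26.4 with honokiol in THP-1, and 40.6, 38.7 and 48.6 against 33.9, 26.7 and 23.1 in U-937, where the closest libraries of THP-1 were 38.8 and 39.0. MYB was without overlap on FPKM as deposited but under none of the other 4 scalings, and it passed in 8 of the 12 fits with a library left out.

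The lower genes are given next. ZSCAN2, a zinc finger gene, stood at 1.44, 1.72 and 1.73 with DMSO and 0.91, 0.78 and 0.71 with honokiol in THP-1, and 1.31, 1.48 and 2.43 against 0.52, 0.55 and 0.60 in U-937 (-1.37 ± 0.18 (SE), adjusted p = 0.00361). IL17RA, the interleukin 17 receptor, stood at 79.2, 65.5 and 57.9 with DMSO and 39.9, 27.9 and 19.9 with honokiol in THP-1, and 40.3, 41.3 and 28.9 against 18.3, 19.9 and 23.98 in U-937 (-1.10 ± 0.18 (SE), adjusted p = 0.00893). TNFSF10 encodes the death ligand TRAIL, and stood at 2.60, 1.69 and 2.07 with DMSO and 0.70, 0.43 and 0.28 with honokiol in THP-1, and 0.99, 1.40 and 0.97 against 0.70, 0.55 and 0.60 in U-937 (3.02-fold lower, -1.59 ± 0.30 (SE), adjusted p = 0.0162). F3 stood at 6.11, 11.8 and 4.36 with DMSO and 2.89, 1.78 and 1.55 with honokiol in THP-1, and 1.71, 0.87 and 1.63 against 0.41, 0.68 and 0.33 in U-937, without overlap (-1.77 ± 0.29 (SE), adjusted p = 0.00854). TNFSF10 in THP-1 and F3 in U-937 met the FPKM limit mainly through the DMSO libraries. UBP1, a transcription factor, fell by 0.95 ± 0.15 and MLC1, a membrane protein, by 0.80 ± 0.15. Of the other lower genes without overlap in both lines, PRUNE1, MRPL30, PEAK3, IFITM1, PLEC and TNRC6C had log2 fold changes from -1.15 to -0.85 and passed in 2 to 8 of the 12 fits with a library left out. MRPL30 and IFITM1 share exons with other genes on their strand. The actin regulators DIAPH1 and FMNL1 had the smallest p-values among the lower genes. DIAPH1, a formin, stood at 57.8, 55.8 and 55.1 with DMSO and 42.2, 35.7 and 34.01 with honokiol in THP-1, and 44.97, 46.3 and 46.8 against 29.8, 30.1 and 30.2 in U-937, a narrow spread within each group (-0.68 ± 0.084 (SE), adjusted p = 0.00302). FMNL1, the formin of blood cells, stood at 28.4, 28.4 and 27.6 with DMSO and 17.9, 17.4 and 16.7 with honokiol in THP-1, and 28.3, 23.03 and 20.2 against 14.5, 15.7 and 14.2 in U-937 (-0.77 ± 0.10 (SE), adjusted p = 0.00361), while its relative FMNL2 rose. TNF, the inflammatory cytokine, was lower on average (-1.44 ± 0.34 (SE), adjusted p = 0.0389), with overlap in U-937, where DMSO gave 22.1, 7.24 and 12.8 and honokiol 7.72, 10.7 and 3.78. It passed in 4 of the 12 fits with a library left out.

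In the lists that follow 1 to 4 members passed, where 1.84% of all tested genes were called higher and 1.44% lower. In DNA replication and S phase, all 37 genes were tested, MCM4, MCM7 and GINS2 of the replicative helicase fell, none rose, and 4 of the 37 were positive (median -0.22). GINS2 stood at 10.1, 8.99 and 11.01 with DMSO and 7.06, 6.42 and 6.32 with honokiol in THP-1, and 15.2, 17.3 and 17.1 against 15.2, 13.4 and 11.3 in U-937 (-0.53 ± 0.10 (SE), adjusted p = 0.0191), and MCM4 at 40.8, 31.4 and 38.4 with DMSO and 20.8, 25.9 and 24.9 with honokiol in THP-1, and 54.96, 63.2 and 55.9 against 48.7, 52.6 and 41.95 in U-937 (-0.53 ± 0.11 (SE), adjusted p = 0.0262). Without THP-1 honokiol replicate 2 none of the list passed. In the MYC network and ribosome biogenesis list 3 of 28 were positive (median -0.36) and PES1, of ribosome assembly, fell (-0.50 ± 0.13 (SE), adjusted p = 0.0476). None passed without DMSO replicate 1 of both lines, and up to 8 did in the fits with a library left out. Heat shock proteins had 1 positive member of 20 (median -0.22), and HSPE1, the mitochondrial chaperonin 10, fell (-0.62 ± 0.11 (SE), adjusted p = 0.0162). Glycolysis had a median of -0.26 over 23 genes, with HK3, a hexokinase, higher and GPI, the next enzyme, lower (-0.52 ± 0.11 (SE), adjusted p = 0.0323). Of 21 tested NF-κB and inflammatory genes MAP3K8, a kinase upstream of ERK, rose (0.99 ± 0.18 (SE), adjusted p = 0.0161) and TNF fell; the median of -0.16 became 0.36 without DMSO replicate 1 of both lines. In the BCL2 and death receptor list BMF and BCL2L11, which encode pro-apoptotic BH3-only proteins, rose by 0.78 ± 0.20 and 0.72 ± 0.15, and TNFSF10 and CASP2 fell, of 26 tested. No higher member passed without THP-1 DMSO replicate 2. CASP2 encodes an initiator caspase. In endoplasmic reticulum stress, 22 of 25 were positive (median 0.26), and HERPUD1 and EDEM1, of protein degradation, rose by 0.60 ± 0.14 and 0.67 ± 0.12. Without DMSO replicate 1 of both lines 1 gene of each direction passed in the BCL2 list and 1 in the endoplasmic reticulum list, and no higher glycolysis gene and no lower NF-κB gene did.

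By edgeR no member passed among 33 genes of mitosis, 34 nuclear genes of oxidative phosphorylation, 20 interferon-stimulated genes, 23 autophagy genes or 15 mitochondrially encoded genes. DESeq2 called 4 lower mitochondrially encoded genes, 2 higher and 1 lower autophagy gene, 1 lower gene each of mitosis and oxidative phosphorylation and 1 higher interferon-stimulated gene, and limma on log2(FPKM + 0.5) 1 higher autophagy gene. In the mitochondrially encoded list the median of -0.64 became -0.10 without DMSO replicate 1 of both lines, the libraries with the high mitochondrial share. MT-CYB, cytochrome b, stood at 4827, 2697 and 2459 with DMSO and 2415, 2411 and 1894 with honokiol in THP-1, and 2877, 1629 and 1637 against 968, 917 and 1337 in U-937.

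**Figure D4:**
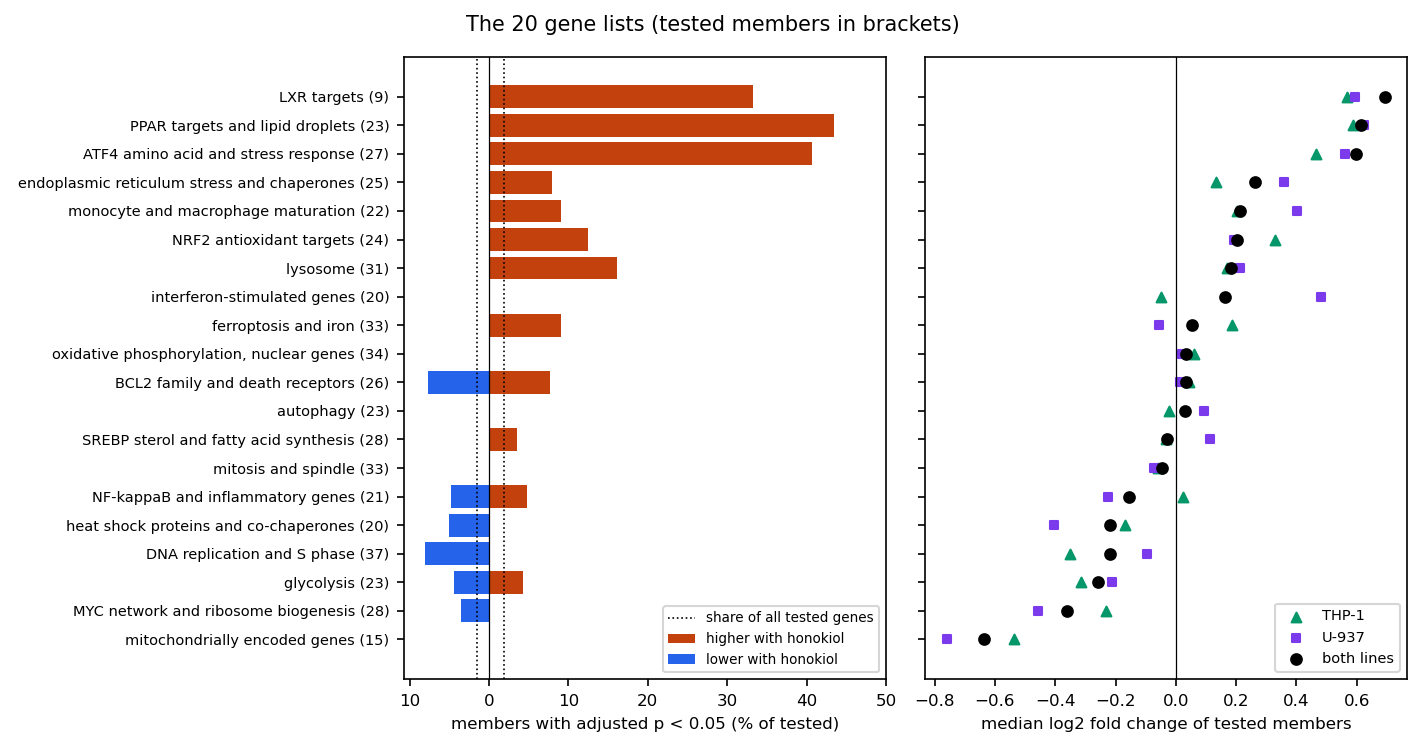
Left, share of the tested members of each of the 20 lists with an adjusted p under 0.05 (x axis, %, higher with honokiol to the right, lower to the left; dotted lines, 1.84% and 1.44% of all tested genes). Right, median log2 fold change of the tested members in THP-1, U-937 and both lines; the PPAR (43.5%), ATF4 (40.7%) and LXR (33.3%) lists lead on the left.

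No gene passed the adjusted threshold for a difference between the lines by edgeR, so the values of the lines are given side by side. FMNL2 rose by 2.17 in THP-1 and 0.76 in U-937 on the log2 scale (unadjusted p of the difference = 0.000235, adjusted p = 0.186, edgeR's quasi-likelihood test). In THP-1 FMNL2 met the FPKM limit mainly through the honokiol libraries, with DMSO at 0.36, 0.45 and 0.59, which favors a rise there. CD38 rose by 0.83 and 2.85 (unadjusted p = 0.000779, adjusted p = 0.205), and PLTP by 0.57 and 1.34 (unadjusted p = 0.00453, adjusted p = 0.325). In U-937 CD38 met the FPKM limit through the honokiol libraries alone, so it had to rise there. For TFRC the difference had an unadjusted p of 0.00769 and an adjusted p of 0.364. Over all tested genes the difference between the lines was past the adjusted threshold for 0 genes (0%) by edgeR, with 1148 at an unadjusted p under 0.05 and a smallest adjusted p of 0.0573, for 0 by limma (1149 unadjusted) and for 107 by DESeq2 (1266 unadjusted). Among the 405 genes 44 had an unadjusted p of the difference under 0.05. SAT1 (1.66 and 1.71), DDIT3 (1.37 and 1.45), SLC7A11 (1.49 and 1.40) and FABP4 (4.44 and 4.46) had close values in both lines.

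Many single calls rested on all 12 libraries being present. In fits with a library left out, HERPUD1, HK3, MCM7, CPT1A, LIPA, BMF and S100P passed in 2 of 12, PES1, DDIT4, NLRC4 and IL21R in 3, ATP6V1A, PSAP, TNF, PPARG, TRIB3 and GPI in 4, FABP4, CASP2 and IDH1 in 5, and BCL2L11 and STARD4 in 6. ASAH1 and MERTK passed in 7 of 12, VWA5A, MCM4 and MYB in 8, and GINS2 and CD38 in 9.

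**Figure D5:**
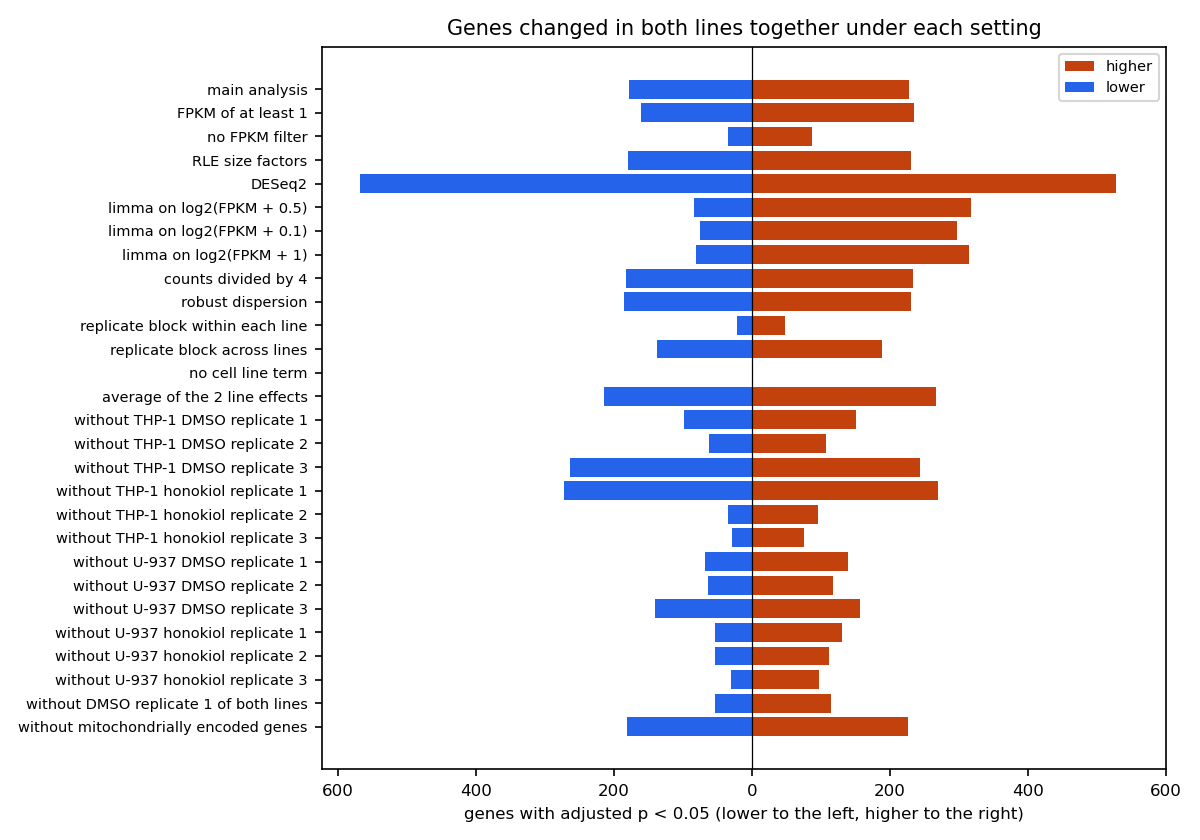
Number of genes at an adjusted p under 0.05 in the comparison of honokiol with DMSO over both lines (x axis, higher to the right and lower to the left) under each setting (y axis). The 227 and 178 genes of the main analysis stand beside 527 and 568 by DESeq2, 48 and 21 with a replicate block within each line, and 76 and 29 without THP-1 honokiol replicate 3.

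Promoters of the changed genes were searched for elements bound by the factors named above, in RefSeq windows (GRCh38.p14) from 250 bases before to 50 after each start site. Such a window was found for 8750 of the 12343 genes, for 181 of the 227 higher and 142 of the 178 lower ones, and a gene with several start sites counts as holding a motif if any window does. HMOX1, SLC7A11, MGLL and FABP4 had no window and were not searched. The C/EBP-ATF element TTGCATCA was in 4 of the 181 higher genes (2.21%), in 1 of the 142 lower genes (0.704%) and in 0.697% of all genes tested. The E-box CACGTG was in 9.94% of the higher, 21.1% of the lower and 13.1% of all genes, and the antioxidant core TGACNNNGC in 15.5%, 25.4% and 19.7%. The E2F element TTTCGCGC was in 1 higher and 2 lower genes, MCM7 among them, against 1.31% of all genes. The sterol element TCACNCCAC was in 2 genes of each direction (1.1% and 1.41%, against 1.42%). No higher or lower gene held 2 copies of AGGTCA in 1 direction spaced by 1 or by 4 bases, which were in 0.0571% and 0.0114% of all genes. Both strands were searched, motifs may overlap, and a match shows letters in a window, not binding. The 4 higher genes with the C/EBP-ATF element are shown on the gene's strand, 5′ to 3′, with the element or its reverse complement in capitals. None of the 4 is in the ATF4 list. IL21R met the FPKM limit in THP-1 through the honokiol libraries alone and so had to differ there, and its treatments overlapped in U-937.
HERPUD1, chr16:56931956-56931983, + strand: acgcggcgggTTGCATCAgcccgtgccc
AARS1, chr16:70289676-70289703, - strand: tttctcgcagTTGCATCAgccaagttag
IL21R, chr16:27427143-27427170, + strand: catccatcccTGATGCAAtcactgtggt
PLIN4, chr19:4518649-4518676, - strand: ccactcagccTGATGCAAgctgtgggca
HERPUD1 helps to clear misfolded proteins, AARS1 charges alanine tRNA, IL21R is a cytokine receptor and PLIN4 a lipid droplet protein. An E-box ended 63 bases before a start of PLIN2 and 41 bases before a start of CTSD, the highest of the lysosomal genes in level and fold change, and both are shown with the E-box in capitals.
PLIN2, chr9:19127546-19127571, - strand: tgccgcgggtCACGTGctgcggaggc
CTSD, chr11:1763959-1763984, - strand: cggccgcgccCACGTGaccggtccgg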

How the data were processed

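The authors deposited, for each of 36866 genes and 12 libraries, FPKM (2 decimals) and whole-number estimated counts. The deposited estimated counts are not normalized and derive from coverage, since 4 occurs 17264 times, 3 occurs 6764 times and 5 occurs 4016 times. They overstate the fragments, and counting error is therefore not known from them. The submitters' processing notes name HISAT2 2.0, StringTie 1.3.0 and Bowtie 0.12.2, with no role given, and the build mm8. The coordinates are human, and 35762 genes were found in GENCODE 29 (GRCh38). Strand use in counting is not given in the sources used here, and of the 405 changed genes 68 share exons with another gene on their strand and 168 on the opposite strand.

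Counts were compared with edgeR 4.0.16 (quasi-likelihood test, TMM, Benjamini-Hochberg adjustment over all tested genes, R 4.3.3), with the line and the treatment as terms and no replicate term. All adjusted p-values of the report come from this fit unless another tool is named. The fit was tested on simulated counts for 12343 genes, where it called 70 of 100 genes changed by 1 and 94 of 100 changed by 1.5 on the log2 scale, and 4 of 12143 unchanged genes. These counts were drawn independently for each library from the fitted model, with the same change in both lines. They therefore do not give the error rate in the real libraries, where single libraries moved the count of changed genes. Samples took their groups from the labels. Genes are named by rule: the 10 highest and 10 lowest fold changes without overlap and with a mean FPKM of at least 1 in each line, up to 4 members per list without overlap by smallest p, and HMOX1, SAT1, SLC7A11, CEBPB, GPX4 and TFRC. Other named genes were picked once their values were known. The members and lists were chosen with earlier results of these data known. Alternatives covered DESeq2 1.42.0, limma 3.58.1 on log2(FPKM + 0.1, 0.5 or 1), filters, size factors, replicate blocks, rescaled FPKM and each library left out, and 2 further rescalings of FPKM were added after the data had been seen.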

Additional observations from a re-analysis of the deposited data

Results flagged for a closer look

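For 142 of the 12343 tested genes the libraries of the treatments were apart in both lines but in opposite directions, 3 against 3 in each. Of these, 45 were higher in THP-1 and lower in U-937 and 97 the other way round. That the lines differ in these genes was not tested as a count. The count was 139 on CPM after TMM, 88 on FPKM rescaled to the FPKM total without the mitochondrially encoded genes and 150 on FPKM rescaled by their count share, beside 637, 593, 539 and 623 genes without overlap in the same direction on FPKM as deposited and on these scales.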

How the results depend on the processing

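The counts of higher and lower genes depended on the processing, and the causes were not tested except where a setting leaves fewer genes or libraries. With DESeq2, 527 genes were higher and 568 lower at an adjusted p under 0.05, 41 of the lower ones past a log2 fold change of 1, and 404 of the 405 genes were among them. Without the FPKM filter 87 were higher and 35 lower (12 past the fold limit), with 28590 genes tested. By limma the lower genes numbered 84, 76 and 81 with 0.5, 0.1 and 1 added to FPKM, of which 7, 9 and 4 were past the fold limit, and 32 higher genes were past it with 1 added. With a replicate block within each line 48 genes were higher and 21 lower, 25 and 3 of them past the fold limit, and with a replicate block across lines 13 lower genes were past it. Within a line same-numbered libraries correlated between -0.21 and 0.12 in their deviations, and 2 of 12 libraries correlated best with their own number. Across the lines, same-numbered DMSO libraries correlated at 0.21 (replicate 1, the pair with the high mitochondrial share), 0.054 (replicate 2) and 0.17 (replicate 3). Differently numbered DMSO libraries of the lines correlated between -0.21 and 0.096, and same-numbered honokiol libraries between -0.053 and 0.015. Whether a replicate number marks a shared batch was not tested. Without a cell line term 0 genes passed (0 higher and 0 lower, 930 at an unadjusted p under 0.05). Without DMSO replicate 1 of both lines 115 were higher and 53 lower, 6 of the lower ones past the fold limit. With 1 library left out, the higher genes ranged from 76 to 270 (31 to 69 past the fold limit) and the lower from 29 to 273 (6 to 31), lowest without THP-1 honokiol replicate 3 and highest without THP-1 honokiol replicate 1. Genes without overlap in both lines ranged from 523 to 789 higher and from 173 to 297 lower with a library left out, which can only add genes, numbered 438 lower without DMSO replicate 1 of both lines, and 269 lower on CPM after TMM. On FPKM divided by the FPKM share outside the mitochondrially encoded genes they numbered 188 higher and 351 lower, an excess of lower genes. That scale left differences in FPKM total between libraries in. A pair of other rescalings, chosen after seeing the data, gave 425 and 198 (by the count share of those genes) and 361 and 211 (by the FPKM sum of the other genes). Of the fold changes of single genes, those of GPX4 and NQO1 changed sign, GPX4 to 0.057 by limma with each added value and to 0.042 without DMSO replicate 1 of both lines. With a library left out GPX4 ranged from -0.053 to 0.040 and NQO1 from -0.038 to 0.14.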

Other observations

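Several further genes, chosen after their values were seen, passed in the fit over both lines and belong to none of the groups described above. SAMHD1, a dNTP hydrolase that restricts viruses in myeloid cells, had an FPKM of 19.03, 8.58 and 13.3 with DMSO and 21.8, 35.8 and 29.1 with honokiol in THP-1, and 0.72, 0.50 and 0.51 against 2.03, 1.42 and 2.46 in U-937 (1.33 ± 0.23 (SE), adjusted p = 0.0139). MERTK, a receptor kinase for the uptake of dying cells, stood at 2.56, 1.29 and 1.70 with DMSO and 3.92, 8.62 and 4.83 with honokiol in THP-1, and 9.53, 9.68 and 6.98 against 12.8, 15.2 and 18.8 in U-937 (1.15 ± 0.25 (SE), adjusted p = 0.0323). RETREG1, a receptor for autophagy of the endoplasmic reticulum, rose as well (1.28 ± 0.17 (SE), adjusted p = 0.00361), while no gene of the autophagy list passed. RETREG1 met the FPKM limit in THP-1 through the honokiol libraries alone and so had to differ there. IRF1, an interferon-responsive transcription factor, rose by 0.70 ± 0.13, KLF9, a transcription factor, by 0.60 ± 0.096 and IDH1, the cytosolic isocitrate dehydrogenase, by 0.57 ± 0.13 on the log2 scale. These genes were without overlap in both lines on FPKM. NLRC4, an inflammasome sensor, rose on average (1.78 ± 0.39 (SE), adjusted p = 0.0323) with 0.82 in THP-1, where the treatments overlapped, and 2.76 in U-937 (unadjusted p of the difference = 0.00357, adjusted p = 0.320). With a library left out NLRC4 passed in 3, IDH1 in 5 and MERTK in 7 of 12 fits. SAMHD1 lost its separation on FPKM divided by the FPKM share outside the mitochondrially encoded genes.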
